A study of Homo sapiens with 4 samples.

Results

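The replication-dependent histone genes were the 75 rows of 59050 in the gene count table whose symbols start with HIST1H, HIST2H, HIST3H or HIST4H, after 14 of 89 such rows named as pseudogenes (PS and a number) were left out. They encode the linker histone H1 (6 genes) and the core histones H2A (17 genes), H2B (22 genes), H3 (15 genes) and H4 (15 genes). The series holds RNA-seq of HUES8, a line of human embryonic stem cells grown on Matrigel in mTeSR1 medium, with 2 libraries of the genotype WT and 2 of the genotype CPT2 KO. CPT2, carnitine palmitoyltransferase 2, acts in the mitochondrial oxidation of long-chain fatty acids, and the title links fat metabolism to the formation of definitive endoderm through SMAD3. The treatment label is WT for all 4 libraries, and the labels do not give how CPT2 was disrupted or how many clones were used.

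Replication-dependent histone genes lie mostly in clusters, have no introns in their classical form, and are transcribed in S phase, when newly made DNA must be packed into nucleosomes. Their mRNAs classically end in a conserved stem-loop in place of a poly(A) tail. The stem-loop is bound by SLBP, and the U7 small nuclear ribonucleoprotein directs the cut behind it, while NPAT drives transcription at the histone locus. Some of these genes can also give polyadenylated transcripts, by use of a signal beyond the stem-loop. Replication-independent variants such as H2AFZ and H3F3A are encoded elsewhere and have ordinary polyadenylated mRNAs.

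The 3′ stem-loop is shown for 6 genes of the H2A, H2B, H3 and H4 classes because it is the sequence that sets these mRNAs apart from others. The sequences were read from GENCODE 29 transcripts on GRCh38 and are 5′ to 3′ on the strand of the gene as DNA letters, with the stem and its loop in capitals.
HIST1H2AC, chr6:26124664-26124689, plus strand: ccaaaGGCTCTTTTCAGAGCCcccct
HIST1H2BC, chr6:26123467-26123492, minus strand: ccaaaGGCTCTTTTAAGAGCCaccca
HIST3H2A, chr1:228457364-228457389, minus strand: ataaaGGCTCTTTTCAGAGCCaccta
HIST1H3G, chr6:26270918-26270943, minus strand: aaaaaGGCTCTTTTAAGAGCCgccta
HIST1H4I, chr6:27139649-27139674, plus strand: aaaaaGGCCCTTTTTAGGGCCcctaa
HIST4H4, chr12:14770719-14770744, minus strand: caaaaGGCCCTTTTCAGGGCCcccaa
In these 6 genes the capitals began 34 to 44 bases after the stop codon. A stem-loop of this form (16 bases on the transcript strand, with any base allowed at 3 of them: the fourth, the tenth and the thirteenth) stood within 150 bases of the stop codon in 31 of the 36 protein coding histone genes whose models go on beyond the stop (86.1%), that of HIST1H2BN lying in an exon shared with HIST1H2AL. Over all protein coding genes with such bases it stood in 32 of 19151 (0.167%). The 1 gene outside the 75 was H2AFX, which encodes the variant H2A.X.

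Promoter sequences are shown for HIST1H2AC and HIST1H2BJ, picked with their values known as the histone genes with the largest differences between the groups among those with at least 100 counts. HIST1H1C is shown as the only H1 gene that could be tested. Each is the 250 bases before the RefSeq transcription start on GRCh38.p14, read in the direction of the gene, with matches on either strand in capitals: the CCAAT box, the TATA box in the form TATAAA, the octamer ATTTGCAT known from H2B promoters and the H1 box AAACACA.
HIST1H2AC, chr6:26123922-26124171, plus strand: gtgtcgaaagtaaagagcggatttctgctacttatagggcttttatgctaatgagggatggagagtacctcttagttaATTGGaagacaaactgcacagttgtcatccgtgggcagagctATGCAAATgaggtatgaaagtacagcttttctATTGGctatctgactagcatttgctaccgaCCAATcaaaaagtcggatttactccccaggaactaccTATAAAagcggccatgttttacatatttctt
HIST1H2BJ, chr6:27132796-27133045, minus strand: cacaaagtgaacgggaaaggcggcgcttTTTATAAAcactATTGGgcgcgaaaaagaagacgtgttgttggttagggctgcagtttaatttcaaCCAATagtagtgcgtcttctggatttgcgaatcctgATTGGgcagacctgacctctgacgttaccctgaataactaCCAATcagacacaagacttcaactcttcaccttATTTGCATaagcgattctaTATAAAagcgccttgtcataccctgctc
HIST1H1C, chr6:26056471-26056720, minus strand: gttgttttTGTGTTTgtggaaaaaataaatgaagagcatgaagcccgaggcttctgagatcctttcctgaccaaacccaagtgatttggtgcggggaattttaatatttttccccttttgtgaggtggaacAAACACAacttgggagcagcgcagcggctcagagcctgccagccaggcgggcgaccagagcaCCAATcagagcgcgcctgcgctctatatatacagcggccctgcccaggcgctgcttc
The printed HIST1H2AC sequence holds the octamer and spans the whole interval to HIST1H2BC, which is read in the other direction, with the beginning of the first exon of each gene at its ends. The printed HIST1H2BJ sequence holds the octamer 47 bases before the start and TATAAA 28 bases before it. The printed HIST1H1C sequence holds the H1 box 119 bases before the start and again, on the opposite strand, 242 bases before it.

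Of the 75 genes, 61 had a RefSeq promoter, taken here as 250 bases before to 50 after the start and searched on both strands. The octamer, known as the site of OCT1 in H2B promoters, was found in 14 of 18 H2B and 11 of 14 H2A promoters and in none of the 29 H1, H3 and H4 promoters, against 1.77% of 35116 RefSeq promoters. The H1 box was found in all 6 H1 promoters, in 1 of 14 H2A and in 2 of 10 H3 promoters, and in 5.64% of all promoters. CCAAT was found in every matched promoter of the H1, H2A, H2B and H3 classes but in 3 of 13 H4 promoters, and in 34.6% of all promoters. TATAAA was found in 41 of the 61 (67.2%), against 11.5% of all promoters. Neighbouring H2A and H2B genes read away from each other, such as HIST1H2AC and HIST1H2BC, have windows that share much of their DNA. The same match can therefore be counted for both genes. These matches describe letters in a window and not binding.

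Totals ran from 16887789 to 20460031 counts per library. Levels are given as CPM, which divides each count by the library total after edgeR's TMM correction, and a gene with 1 count had 0.0489 to 0.0592 CPM. Whether replicates were separate cultures is not stated, so a p-value here speaks of the spread among 4 libraries, which may be technical. Counts for CPT2 itself were 52 and 72 with the WT label and 233 and 170 with the CPT2 KO label (log2 fold change 1.78, SE 0.273, edgeR adjusted p = 0.0218), against the direction the label gives. Without KO-labelled replicate 1 or 2 the log2 fold change of CPT2 was 1.69 or 1.87, and the edgeR adjusted p, 0.168 or 0.0511, missed the threshold. The part of the gene that was disrupted is not stated, so these counts may not check the label. The groups are therefore called WT-labelled and KO-labelled throughout. Of the 4 libraries, WT-labelled replicate 1 was the most unlike the rest, at a chi-square over genes, per degree of freedom, of 39.6 to 53.3 against 10.5 to 12.6 among the other 3, and 4.15% mitochondrial counts against 7.21% to 7.84%. Markers of undifferentiated stem cells summed to 8768 to 9771 CPM in every library. The 8 mesendoderm and endoderm markers summed to 3.46 and 3.54 CPM in the WT-labelled libraries and to 255.6 and 44.0 in the KO-labelled pair, with GATA6 and SOX17 at 0 counts in both WT-labelled libraries. Of the marker lists, 2 of 5 neuroectoderm genes (SOX1 and SIX6) were called lower by edgeR, and 0 of 8 stem cell, 0 of 6 tested mesendoderm and endoderm and 0 of 3 tested fibroblast genes were called, with 1, 5 and 0 of them at an unadjusted p under 0.05. DESeq2 called 5 of the 6 mesendoderm and endoderm genes higher (EOMES, MIXL1, CER1, GSC and GATA4), and edgeR called 2 or 3 of them without WT-labelled replicate 1, WT-labelled replicate 2 or KO-labelled replicate 1 and all 6 without KO-labelled replicate 2. A change in the kinds of cells and a change in the RNA per cell cannot be told apart in bulk RNA.

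Counts of histone genes were low and lay mostly in a few genes. Whether the cells held few such mRNAs cannot be told, because poly(A) selection and the handling of reads with several alignments are not stated. The 75 genes held 1264 and 1581 counts in the WT-labelled libraries and 2115 and 1612 in the KO-labelled pair, 6572 in all. No count was found for 13 genes, 1 to 9 counts for 24, and 14 more with at least 10 counts did not pass the low-count filter of the test. The other 24 held 94.4% of the counts, and the top 5 held 51.6%. By count the leading genes were HIST2H2BC, HIST1H2AC, HIST3H2A, HIST1H1C and HIST2H2BD. Of these 5, HIST2H2BC and HIST2H2BD are annotated in GENCODE 29 as transcribed pseudogenes.

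In GENCODE 29, 55 of the 75 lie on chromosome 6, 19 on chromosome 1 and 1, HIST4H4, on chromosome 12. Annotated as protein coding were 70, and 5 as pseudogenes whose symbols the selection keeps: HIST2H2BA, HIST2H2BC, HIST2H2BD, HIST2H3DP1 and HIST3H2BA. The deposited length equalled the GENCODE 29 exon length for 72 of the 75. For 34 coding genes the GENCODE 29 model ended at the stop codon, though the deposited lengths of HIST1H3B, HIST1H3C and HIST2H2AB among them were longer. These had a median of 3.5 counts, and 3 of them (HIST1H1C, HIST1H2BK and HIST1H2BO) passed the filter. For 36 the model went on beyond it, with a median of 37 counts, and 19 passed. Among these 36 the 22 with AATAAA, the common polyadenylation signal, after the stop codon had a median of 70.5 counts and the 14 without it had 16. AATAAA was found after the stop codon in 61.1% of the 36, against 82.0% of all protein coding genes with such bases. Longer models can collect more reads, so these medians are not levels per length, and no source used here says whether polyadenylated RNA was selected.

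Reads of some genes could not be assigned with certainty and may have been left uncounted. Every 50-base stretch of HIST1H2AK, HIST1H4K, HIST2H2AA3, HIST2H3A and HIST2H3C also occurs in another histone gene's model, and so do 97.1% to 97.5% of the stretches of HIST2H2AA4, HIST2H4A and HIST2H4B. For HIST2H2BD the share was 71.0% and for HIST2H2BC 39.6%, and these 2 models overlap each other on opposite strands. It was 62.3% for HIST1H2AI and 22.6% for HIST1H2BK, but 0.4% for HIST1H2AC. In all, 17 of the 75 share exon positions with another gene, among them HIST1H2BN with HIST1H2AK and HIST1H2AL, and HIST1H2BE with AL353759.1.

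In counts per length, most of the tested replication-dependent genes lay below the 11 tested replication-independent variants. Because the families classically differ in the poly(A) tail and its selection is not stated, these values may not compare their levels in the cells. Among the 24 tested histone genes the mean level over the 4 libraries ran from 0.206 to 14.5 CPM per kilobase of counted model, with a median of 1.24. The highest were HIST1H2BK at 14.5, HIST1H1C at 12.5, HIST3H2A at 9.11 and HIST1H2AC at 5.68 CPM per kilobase. Over the 11 tested variant genes the median was 42.8 CPM per kilobase, with H2AFZ at 112.1, H3F3A at 111.5 and the centromeric H3 variant CENPA at 13.2. The 11 include H2AFX, at 64.1, whose model holds the stem-loop and no AATAAA after the stop codon. Untested genes were low in both families, and with them the median was 0.223 over all 75 histone genes and 6.34 over all 20 variants. HIST1H2BK and HIST1H1C, whose ranges over libraries overlap, thus lay near CENPA, while H2AFZ and H3F3A stood above every replication-dependent gene in all libraries. HIST2H2BC, first by count, came to 2.08 CPM per kilobase because its counted model is 6440 bases long.

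**Figure D1:**
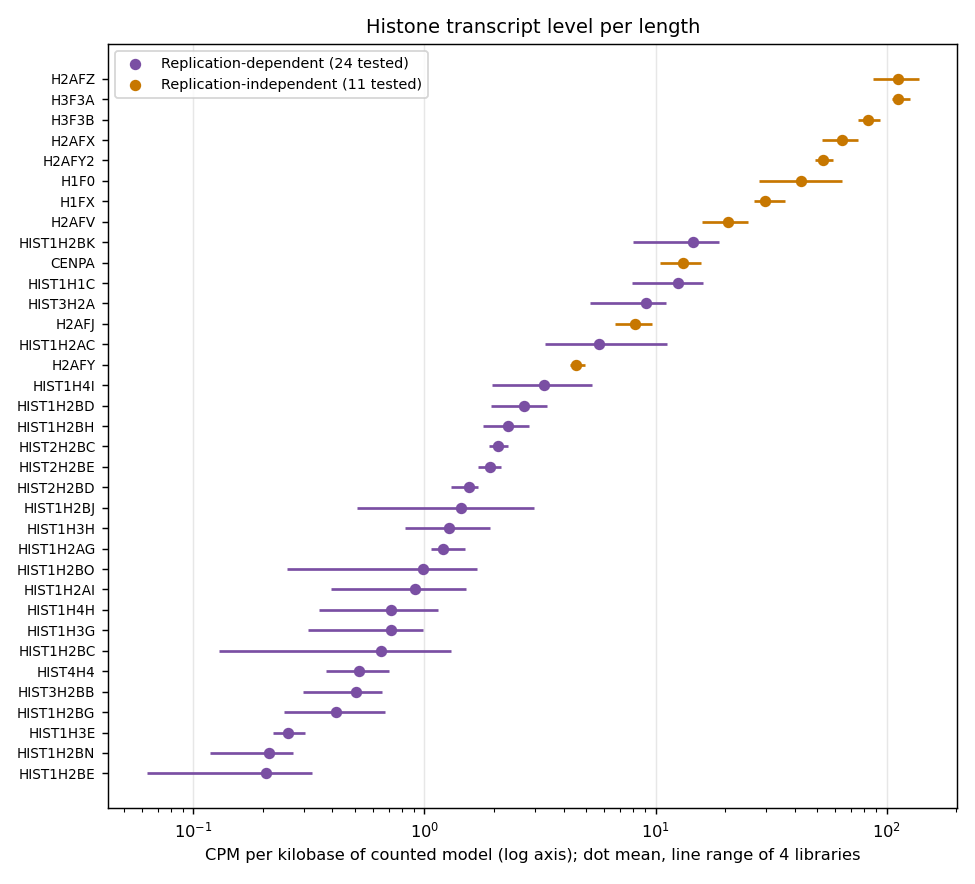
Level of the 24 tested replication-dependent histone genes and 11 tested variant genes as CPM per kilobase of counted model, on a log axis; dots are means and lines the range of 4 libraries. HIST1H2BK is the highest replication-dependent gene at 14.5, and H2AFZ and H3F3A lie near 112.

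The question put to each gene was whether its transcript level differed with the CPT2 genotype label. By edgeR's quasi-likelihood test, adjusted over 17564 tested genes at a threshold of 0.05, 0 of the 24 histone genes were called higher in the KO-labelled libraries (over all tested genes 63 or 0.359%) and 0 lower (10 or 0.0569%). At an unadjusted p under 0.05, 5 were higher (over all genes 4.88%) and 0 lower (4.16%). DESeq2 also called 0 (0.848% of all genes higher). By DESeq2, 2 of the 24 had an unadjusted p under 0.05, against 1257 of 17564 over all tested genes. The log2 fold change was positive for 20 of the 24 (19 with library size as the only scaling, where HIST1H2BD turned negative), against 50.3% of all tested genes, and its median was 0.58 (range -0.60 to 2.23), against 0.00 over all tested genes. Both KO-labelled libraries lay above both WT-labelled ones for 13 of the 24 (21.1% of all genes) and below for 1, HIST2H2BE (19.8% of all genes). HIST1H2BC, HIST1H2BE and HIST1H2BO passed the filter only through the KO-labelled libraries and so had to differ, and these counts and this median do not stand for all 75. Over the 16 with at least 100 counts, 14 were positive, with a median of 0.58. Among the 24, WT-labelled replicate 1 was the lowest library for 13 and KO-labelled replicate 1 the highest for 10. Without WT-labelled replicate 1 the median was 0.32, and without WT-labelled replicate 2 it was 0.88.

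**Figure D2:**
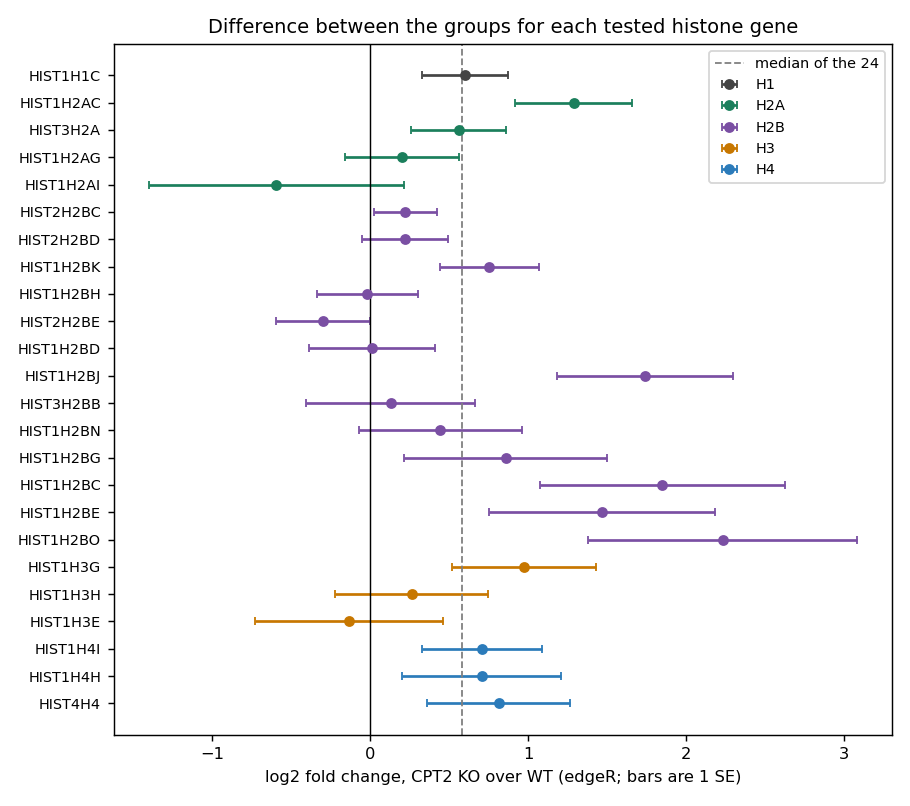
Log2 fold change of each tested histone gene, KO-labelled over WT-labelled libraries, with bars of 1 SE from edgeR, coloured by class; the dashed line is the median of 0.58. Most points lie right of 0, with the widest bars at HIST1H2BO, HIST1H2AI and HIST1H2BC, which have few counts.

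Summed over all 75 genes, with 13 at 0, histone transcripts came to 68.4 and 76.6 CPM in the WT-labelled libraries and 104.5 and 97.0 in the KO-labelled pair. The groups did not overlap, and their means were 72.5 ± 5.81 and 100.8 ± 5.33 CPM (SD, n = 2 each), a ratio of 1.39. With 2 libraries against 2, the smallest p of an exact two-sided permutation test is 0.333, and no test was made of the sums. The ratio was 1.36 for H1, 1.66 for H2A, 1.23 for H2B, 1.45 for H3 and 1.65 for H4, and in each class both KO-labelled libraries lay above both WT-labelled ones. In H2A and H4 the distance rested largely on 1 library each. For H2A the sums were 18.2 and 14.9 CPM against 33.6 and 21.4, and the log2 ratio fell from 0.73 to 0.37 without KO-labelled replicate 1. Most of the H2A difference lay in HIST1H2AC, with means of 5.55 and 13.4 CPM within H2A means of 16.6 and 27.5. For H4 the sums were 5.30 and 7.51 CPM against 8.15 and 13.0, with KO-labelled replicate 2 the highest, and the log2 ratio fell from 0.72 to 0.35 without that library and rose to 1.02 without KO-labelled replicate 1. Without WT-labelled replicate 1 the log2 ratio was 0.17 for H2B (0.30 with all libraries). Over the 70 protein coding genes alone the ratio was 1.46, and over the 5 annotated pseudogenes 1.17. By cluster it was 1.55 for the 55 HIST1 genes, 1.09 for the 15 HIST2 genes, 1.41 for the 4 HIST3 genes and 1.77 for HIST4H4. Of the 1840 HIST2 counts, the annotated pseudogenes HIST2H2BC and HIST2H2BD held 1015 and 427.

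**Figure D3:**
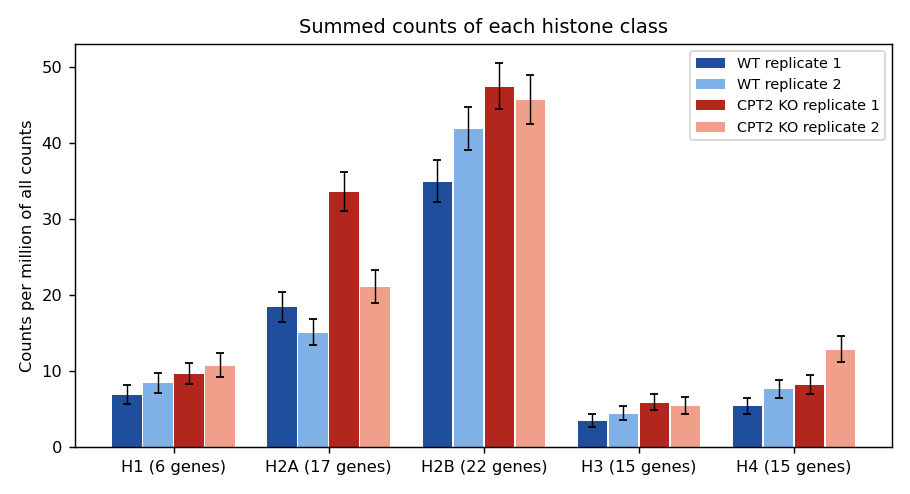
Summed CPM of each histone class (before composition scaling) in each library, with exact binomial 95% intervals, which cover counting error only. In each class both KO-labelled libraries stand above both WT-labelled ones, but the intervals of the nearest WT-labelled and KO-labelled libraries overlap. H2B, with its annotated pseudogenes counted, is the largest class, and H2A shows the widest gap between the KO-labelled libraries.

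H1 binds the linker DNA between nucleosomes, and HIST1H1C (chr6:26055787-26056428, minus strand, 1 exon) held most H1 counts. Its level was 5.09 and 7.66 CPM in the WT-labelled libraries and 9.14 and 10.3 in the KO-labelled pair. The groups did not overlap, but the difference did not pass the test (log2 fold change 0.60, SE 0.27, edgeR adjusted p = 0.552). Leaving out WT-labelled replicate 1 or 2 gave a log2 fold change of 0.34 or 0.93. HIST1H1D went the other way by counts, with 22 and 2 against 4 and 2, so that WT-labelled replicate 1 held most of them. HIST1H1E had 7 and 6 against 4 and 0 counts, and HIST1H1B 2 and 4 against 0 and 7, too few to test.

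H2A pairs with H2B in the nucleosome. HIST1H2AC (chr6:26124145-26139116, plus strand) had 5.52 and 5.57 CPM in the WT-labelled libraries and 18.6 and 8.18 in the KO-labelled pair, from 102, 115, 377 and 136 counts. Both KO-labelled libraries were higher, and replicate 1 stood far above replicate 2. The log2 fold change was 1.29 (SE 0.37, unadjusted p = 0.00708, edgeR adjusted p = 0.300, the smallest among the histone genes). It passed the threshold only without KO-labelled replicate 2 (log2 fold change 1.75, edgeR adjusted p = 0.0277), where 0.461% of all tested genes were called higher, and without replicate 1 it was 0.56; over all alternatives the adjusted p ran from 0.0277 to 0.728. The mesendoderm and endoderm markers were also highest in KO-labelled replicate 1, and their part in the HIST1H2AC values was not tested.

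HIST3H2A (chr1:228456979-228457873, minus strand), whose stem-loop is among those printed, had 8.60 and 4.65 CPM against 9.98 and 9.39. The groups did not overlap, and WT-labelled replicate 2 was the low library (log2 fold change 0.56, SE 0.30, edgeR adjusted p = 0.613). Without that library the log2 fold change was 0.17, and without WT-labelled replicate 1 it was 1.06. HIST1H2AG had 2.54 and 2.52 CPM against 3.36 and 2.41, with overlapping groups (log2 fold change 0.20, and -0.07 without KO-labelled replicate 1). HIST1H2AI had 14 and 7 counts against 4 and 9, also overlapping, and the lowest log2 fold change of the 24 at -0.60 with an SE of 0.81 (-1.42 to 0.06 with a library left out). Below the filter, HIST1H2AE had 8 and 15 counts against 7 and 2, HIST2H2AC 3 and 9 against 11 and 6, and HIST1H2AJ 1 and 1 against 5 and 4.

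**Figure D4:**
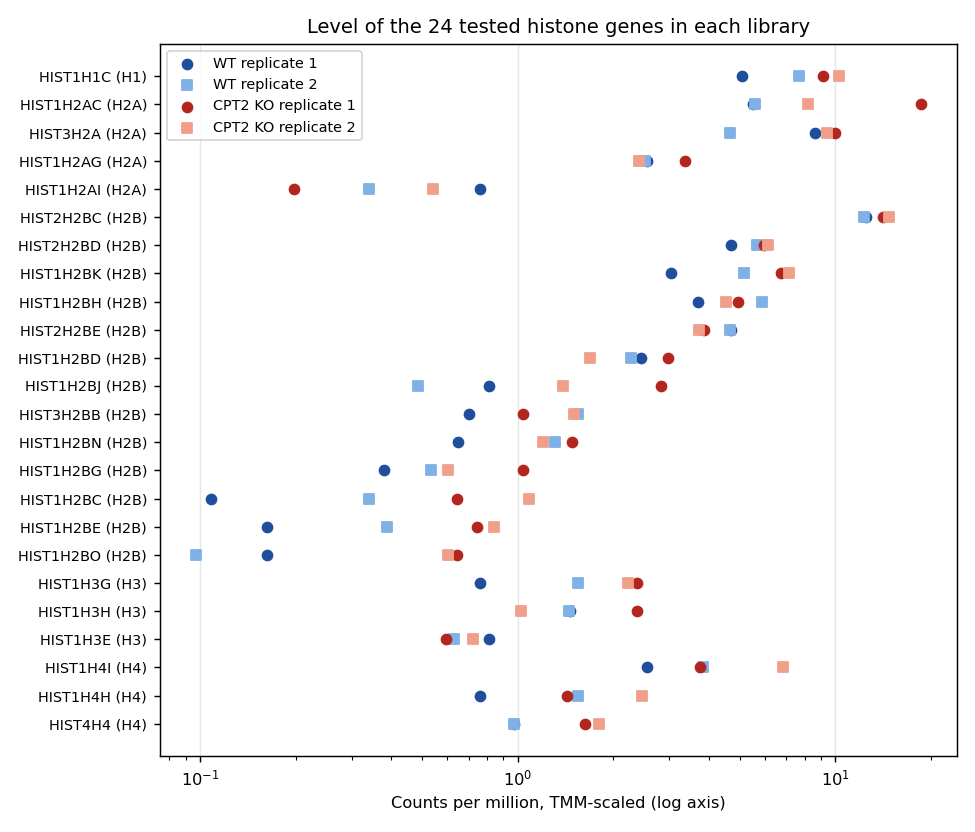
CPM of each tested histone gene in each library on a log axis, grouped by class, with blue for WT-labelled libraries and red for the KO-labelled pair. HIST1H2AC in KO-labelled replicate 1 is the highest point at 18.6 CPM.

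H2B was the class with most counts and most tested genes, 13 of 22, and it held the 4 other genes with an unadjusted p under 0.05. Of its 3228 counts the annotated pseudogenes HIST2H2BC and HIST2H2BD held 1015 and 427. The 18 protein coding H2B genes, 11 of them tested, had a ratio of summed CPM of 1.29. They held fewer counts than H2A in replicate 1 of each group (324 against 337 WT-labelled, 553 against 679 KO-labelled) and more in replicate 2. HIST1H2BJ (chr6:27125897-27132750, minus strand), whose promoter is printed, had 0.812 and 0.485 CPM in the WT-labelled libraries and 2.82 and 1.38 in the KO-labelled pair. As for HIST1H2AC, both KO-labelled libraries were higher and replicate 1 the highest (log2 fold change 1.74, SE 0.56, edgeR adjusted p = 0.361). HIST1H2BK (chr6:27146418-27146798, minus strand) had 3.03 and 5.14 CPM against 6.72 and 7.16, without overlap and with WT-labelled replicate 1 lowest (log2 fold change 0.75, SE 0.31, edgeR adjusted p = 0.523). HIST1H2BC, the divergent neighbour of HIST1H2AC, had 2 and 7 counts against 13 and 18 (log2 fold change 1.85, SE 0.77, edgeR adjusted p = 0.523). HIST1H2BO had 3 and 2 counts against 13 and 10 (log2 fold change 2.23, SE 0.85, edgeR adjusted p = 0.465). With a library left out the log2 fold changes ran from 1.10 to 2.14 for HIST1H2BJ, 0.43 to 1.19 for HIST1H2BK, 1.30 to 2.89 for HIST1H2BC and 1.90 to 2.61 for HIST1H2BO, the lowest for HIST1H2BK and HIST1H2BC being without WT-labelled replicate 1 and that for HIST1H2BJ without KO-labelled replicate 1. HIST1H2BC and HIST1H2BO had counts of 18 or fewer in every library. They passed the filter only through the KO-labelled libraries, so their groups had to lie apart.

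HIST2H2BE (chr1:149884459-149886652, minus strand) was the only tested histone gene with both KO-labelled libraries below both WT-labelled ones, at 4.71 and 4.65 CPM against 3.85 and 3.73. The gap exceeded the distance between replicates, yet the difference did not pass the test (log2 fold change -0.30, SE 0.30, edgeR adjusted p = 0.777). It was negative under every alternative run, from -0.33 to -0.28. HIST2H2BC (chr1:149844498-149850937, minus strand) had 12.4 and 12.3 CPM against 14.1 and 14.8, and HIST2H2BD 4.71 and 5.67 against 5.98 and 6.14. In both the groups did not overlap, with a log2 fold change of 0.22 each. Because of the shared stretches of the pair named above, reads of either may be counted at the other or not at all.

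The other H2B genes varied more between replicates or held few counts. HIST1H2BH had 3.68 and 5.86 CPM against 4.94 and 4.51, and HIST1H2BD 2.44 and 2.28 against 2.97 and 1.68. HIST3H2BB had 13 and 32 counts against 21 and 25. All 3 overlapped between groups, with log2 fold changes of -0.02, 0.01 and 0.13, and each changed sign with some library left out. HIST1H2BN, with 12 and 27 counts against 30 and 20, overlapped as well. HIST1H2BE had 3 and 8 counts against 15 and 14, and HIST1H2BG 0.379 and 0.533 CPM against 1.04 and 0.602. In these 2 genes the groups did not overlap in CPM, and their log2 fold changes of 1.47 and 0.86 had SEs of 0.72 and 0.64. HIST1H2BE passed the filter only through the KO-labelled libraries, so its groups had to lie apart. Below the filter HIST1H2BL had 5 and 6 counts against 1 and 0, HIST2H2BF 7 and 8 against 1 and 6, and HIST1H2BF 1 and 2 against 3 and 8.

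H3 and H4 form the tetramer at the centre of the nucleosome, and 3 of 15 genes of each class passed the filter. HIST1H3G (chr6:26269405-26271815, minus strand) had 0.758 and 1.55 CPM in the WT-labelled libraries and 2.37 and 2.23 in the KO-labelled pair. The groups did not overlap, with WT-labelled replicate 1 lowest (log2 fold change 0.97, SE 0.46, edgeR adjusted p = 0.569). Without that library the log2 fold change was 0.57. HIST1H3H had 1.46 and 1.45 CPM against 2.37 and 1.02, so that the KO-labelled libraries lay on both sides of the WT-labelled pair, and its log2 fold change of 0.26 became -0.51 without KO-labelled replicate 1. HIST1H3E had 12 to 15 counts in every library (log2 fold change -0.14). Below the filter HIST1H3B had 3 and 7 counts against 5 and 13, and HIST1H3J 0 and 5 against 2 and 4.

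All 3 tested H4 genes were positive. HIST4H4, the gene on chromosome 12 (14767999 to 14771131, minus strand), had 0.974 and 0.969 CPM in the WT-labelled libraries and 1.63 and 1.80 in the KO-labelled pair. Replicates lay close together and the groups apart, but on 18 to 33 counts a library the difference did not pass the test (log2 fold change 0.81, SE 0.45, edgeR adjusted p = 0.622). HIST1H4I (chr6:27138588-27139881, plus strand) had 2.54 and 3.83 CPM against 3.76 and 6.86, and HIST1H4H 0.758 and 1.55 against 1.43 and 2.47. Both had KO-labelled replicate 2 as the highest and overlapping groups, with a log2 fold change of 0.70 each. Without that library it was 0.24 for HIST1H4I and 0.30 for HIST1H4H, and without KO-labelled replicate 1 it was 1.10 and 1.08; without WT-labelled replicate 1 it was 0.44 and 0.30, and without WT-labelled replicate 2 it was 1.03 and 1.32. HIST1H4E had 6 to 8 counts in every library, and HIST1H4C had 2 and 4 against 5 and 4, HIST1H4J 2 and 3 against 5 and 6, all below the filter.

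**Figure D5:**
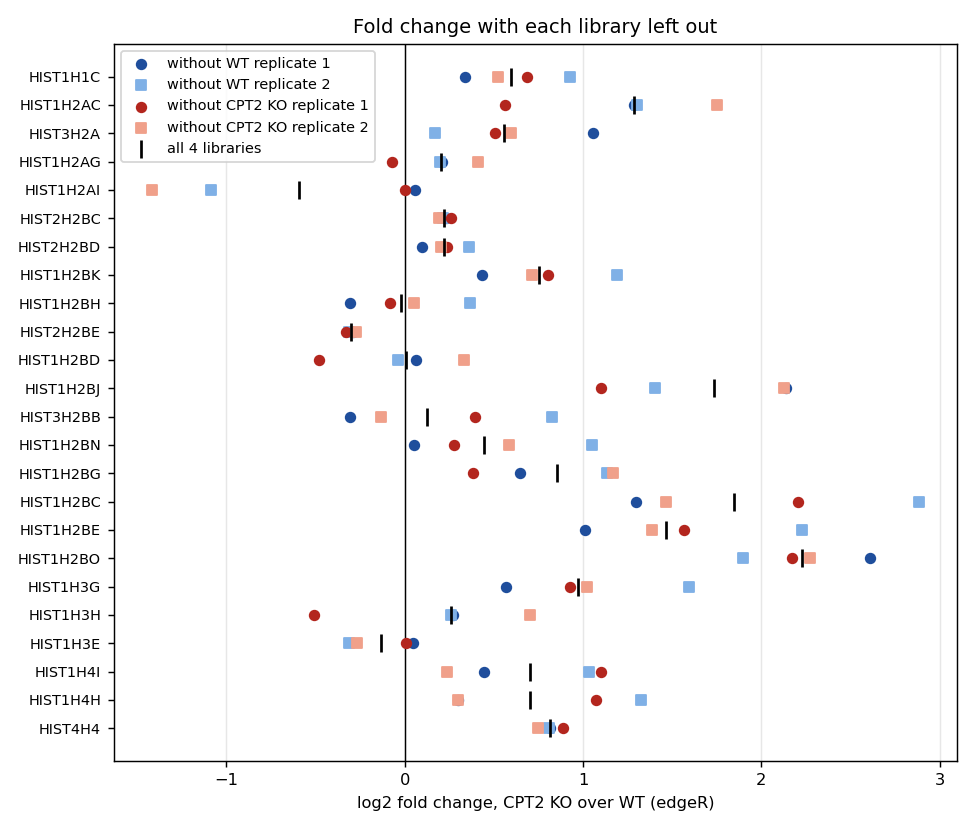
Log2 fold change (edgeR) of each tested histone gene with all 4 libraries (black bars) and with each library left out in turn. HIST2H2BE stays left of 0 and HIST4H4 near 0.81, while HIST1H2AC moves from 0.56 to 1.75 with the KO-labelled library that is left out.

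Histone genes often stand head to head, with an H2A and an H2B gene read away from a shared stretch of DNA. Among protein coding genes at most 1000 bases apart, the annotation held 11 such H2A and H2B pairs and a pair of H3 and H2B. The latter, HIST1H3J with HIST1H2BO, is not a separate site. HIST1H3J shares exon positions with HIST1H2AM on the same strand, and HIST1H2AM is also paired with HIST1H2BO. The pairs had 218 to 356 bases between the starts. Pairs that overlap or hold an annotated pseudogene, such as HIST2H2BC beside HIST2H2AA4, were left out. Both genes were tested in 3 pairs. HIST1H2BC and HIST1H2AC, 218 bases apart and joined by the printed promoter, had log2 fold changes of 1.85 and 1.29. But HIST1H2BC held 5.19% of the counts of the pair and passed the filter only through the KO-labelled libraries. HIST1H2BJ and HIST1H2AG, 291 bases apart, had 1.74 and 0.20, and HIST3H2A and HIST3H2BB, 233 bases apart, had 0.56 and 0.13. In the other pairs the balance varied. HIST1H2BK held 99.3% of the counts of its pair with HIST1H2AH and HIST2H2BE 91.8% of its pair with HIST2H2AC, while HIST1H2BG held 60.5% of its pair with HIST1H2AE and HIST1H2AJ 55.0% of its pair with HIST1H2BM, and HIST1H2AA and HIST1H2BA had no count. Whether the 2 genes of a pair differed in their response was not tested.

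With all 4 libraries, none of the genes listed for the making of histone mRNA passed the test. Of 13 genes for histone transcription and S phase entry, 0 were called in either direction (median log2 fold change 0.03). NPAT had 38.8 and 37.0 CPM in the WT-labelled libraries and 37.8 and 33.0 in the KO-labelled pair, and CASP8AP2, a partner of NPAT at the histone locus, 62.1 and 65.9 against 74.1 and 56.0, both with overlapping groups. Of 35 genes for 3′ end processing and turnover 0 were called (median -0.01). SLBP had 51.3 and 59.3 CPM against 62.2 and 78.9, without overlap (log2 fold change 0.35, SE 0.17, edgeR adjusted p = 0.569), and LSM11, a protein of the U7 particle, 19.6 and 13.2 against 17.3 and 12.9. At an unadjusted p under 0.05 both lists held 0. Without WT-labelled replicate 2, where 3.02% of all tested genes were called higher, CCNE1 of the first list and SRRT, SNRPF, SNRPG and SLIRP of the second were called higher.

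Of 40 DNA replication and S phase genes 0 were called (3 at an unadjusted p under 0.05), with a median log2 fold change of 0.19 and 27 positive, and both KO-labelled libraries lay above both WT-labelled ones for 19. Over all tested genes 0.359% were called higher, 4.88% were higher at an unadjusted p under 0.05, 50.3% were positive and 21.1% lay above. Without WT-labelled replicate 1 the median of the 40 was 0.08, and without WT-labelled replicate 2 it was 0.24, with 5 called higher (PCNA, GINS4, RFC3, RRM2 and UHRF1). PCNA, the replication clamp, had 211.4 and 273.6 CPM against 284.6 and 337.6 (edgeR adjusted p = 0.543), while MCM2, of the replicative helicase, had 112.9 and 108.8 against 105.2 and 112.6. Of 27 tested histone chaperones 0 were called (median 0.06, with 1 at an unadjusted p under 0.05, lower), and of 11 variant genes 0 (median 0.14, with 1 at an unadjusted p under 0.05, higher). H2AFZ had 197.4 and 247.7 CPM against 259.8 and 312.9, without overlap (log2 fold change 0.36, SE 0.16, edgeR adjusted p = 0.534), and it was called higher without WT-labelled replicate 2. H2AFX had 96.6 and 110.1 CPM against 85.2 and 121.8 and H1F0 106.6 and 65.7 against 150.1 and 78.8, with overlapping groups in both.

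RNAs that, like histone mRNAs, carry no poly(A) tail had few counts. Of 32 such genes, small nuclear and nucleolar RNAs among them, 19 had no count, including RN7SK and RPPH1. The test held 4, with 0 called and 0 at an unadjusted p under 0.05. All 4 were positive (50.3% of all tested genes), with a median log2 fold change of 0.76, against 0.58 over the 24 tested histone genes. Without WT-labelled replicate 1 these medians were 0.22 and 0.32. The summed level of the 32 was 4.17 and 8.04 CPM in the WT-labelled libraries and 6.42 and 12.5 in the KO-labelled pair. The ratio of the means was 1.55, with overlapping groups. WT-labelled replicate 1 was the lowest and KO-labelled replicate 2 the highest, the same outer libraries as for the H4 sum, and the part of poly(A) status in the histone values was not tested.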

How the data were processed

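RNA-seq libraries of HUES8 cells, 2 labelled WT and 2 labelled CPT2 KO, were counted by the authors with HISAT2 2.1.0 and featureCounts 1.6.4 on hg38 (GRCh38), per the submitters' processing notes. Per the file headers, the deposited values are read counts of each gene symbol, without any scaling, beside gene lengths in bases. For strand use, reads with several alignments, the annotation release and poly(A) selection nothing is stated in the labels. Reads of overlapping or near-identical genes may therefore be assigned to either or left uncounted.

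Library totals were 16887789 to 20460031 counts. Genes were filtered with filterByExpr by group (17564 of 31279 with a count) and tested with the quasi-likelihood test of edgeR 4.0.16 (R 4.3.3; TMM, robust, group only), adjusted by Benjamini-Hochberg over all of them at 0.05. The fit was tested on simulated data. The SE is the log2 fold change divided by the square root of F. Levels per length are CPM divided by the deposited length. Intervals are exact binomial at 95%. Positions and transcripts came from GENCODE 29, promoters from RefSeq (GRCh38.p14), matched by symbol. Alternatives were 2 other scalings, no filter and a filter of 1 CPM in 2 libraries, DESeq2 1.42.0, a replicate block, each library left out and, added after seeing the data, protein coding genes only. The genes and the 10 lists were chosen with earlier results of these data known. All tested histone genes are named, and untested ones with at least 10 counts. Genes named from the lists were fixed by name, with called genes; GATA6 and SOX17 were added with their values known, as the markers at 0.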

Additional observations from a re-analysis of the deposited data

How the results depend on the processing

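No histone gene was called under the other scalings, without a filter, with a stricter filter, with DESeq2 or with the replicate block, and with a library left out the count called higher was 0 to 1 (HIST1H2AC) and lower 0. The median log2 fold change of the tested histone genes was 0.41 without a filter (62 genes) and 0.32 to 0.88 with a library left out. The log2 ratio of the summed level was 0.47, and 0.39 to 0.56 with a library left out. Over all genes, 63 higher and 10 lower calls became 101 and 23 without a filter, 149 and 46 with DESeq2, and 31 to 531 and 2 to 674 with a library left out. Over the companion lists, 0 higher calls became 2 without a filter, 5 with DESeq2 and 3 to 14 with a library left out, and 2 lower calls (SOX1 and SIX6, neuroectoderm markers) became 0 to 3. All 5 of the DESeq2 calls were mesendoderm and endoderm markers. CPT2 missed the threshold without KO-labelled replicate 1 (log2 fold change 1.69, edgeR adjusted p = 0.168) or replicate 2 (1.87, 0.0511). The cause was not tested.

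Same-numbered libraries deviated together with a correlation of 0.220, but with 2 pairs they share only a number. The replicate block gave 233 higher and 140 lower calls over all genes and 6 higher calls over the companion lists. It called 0 of the 24 tested histone genes, and the median of their log2 fold changes was 0.61. At an unadjusted edgeR p under 0.05 stood 9 of the 24, against 2743 of 17564 over all tested genes. Of the histone genes, 13 had no count, 24 had 1 to 9 counts and 14 more fell below the filter; the fit without a filter, which holds those with a count, called 0 of them.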
